A study of Mus musculus with 38 samples.

Results

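In mouse embryonic stem cells (mESCs), 1181 regions had a call of H3K4me1 in every IκBα-WT library and in no IκBα-KO library. H3K4me1 is the monomethylation of histone H3 at lysine 4. These lost regions were selected on measured values, namely the deposited H3K4me1 calls of both genotypes. The calls of the 6 H3K4me1 libraries were merged wherever they shared at least 1 bp, and a merged region was taken when it was called in 3 of 3 WT and 0 of 3 KO lists. Of 69191 merged regions, 64489 lay on chromosomes 1 to 19 and outside 3 segments in which the input reads differed between the genotypes (chromosome 2 from 165 to 171 Mb, chromosome 8 from 40 to 129 Mb, and chromosome 12 from 103 to 119 Mb). The 1181 lost regions were 1.83% of these 64489. By contrast, 798 regions were called in 3 of 3 KO and 0 of 3 WT lists, and 42214 were called in all 6. Because the rule used the H3K4me1 calls, the H3K4me1 values below describe the regions and were not tested.

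H3K4me1 is deposited mainly by the methyltransferases MLL3 and MLL4 and marks enhancers, both those in use and those held ready. An enhancer that also carries H3K27ac, an acetylation added by the coactivators p300 and CBP, is usually active, whereas one that carries H3K27me3, the mark of Polycomb repressive complex 2, is usually silent and often found near developmental genes in mESCs. H3K4me3 is typical of active or poised promoters, and H3K9me3 of heterochromatin. IκBα, encoded by Nfkbia, is best known as the cytoplasmic inhibitor of NF-κB, and a fraction of it binds chromatin.

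The cells were of the ES-E14TG2a line, an established mESC line, kept in serum medium with LIF (leukaemia inhibitory factor) and taken at 0 h, before differentiation. KO cells had been made with CRISPR-Cas9 and a pair of guide RNAs against the first exon of Nfkbia, and WT cells with scrambled guides. Both genotypes came from single-cell sorted clones, and the 3 replicates of each modification are described as separate clones, so that p-values measure the spread between clones. The series held 30 ChIP libraries (5 modifications, 3 WT and 3 KO each) and 8 inputs. The H3K4me1 lists held 70180 to 76172 calls with 34736939 to 35951506 ChIP reads per library.

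The labels could be checked only in part. Over the 5101 bp promoter windows of the pluripotency factors Pou5f1, Nanog and Sox2, H3K27ac was called in full in all 6 libraries, and it was called over 4235 to 5101 bp at Klf4. Neither H3K27ac nor H3K4me3 was called in the window of the annotated 5′ end of Esrrb. In the Nanog window, H3K4me3 covered 0, 66 and 0 bp in WT and 601, 1516 and 1240 bp in KO cells. At Klf4 it covered 916, 1131 and 1101 bp against 1274, 1678 and 1379 bp, and at Pou5f1 and Sox2 the genotypes overlapped. H3K4me3 covered 479, 731 and 704 bp of the Nfkbia promoter window in WT and 0, 360 and 586 bp in KO cells. The groups overlapped, and a promoter mark does not show whether the exon was edited. For H3K27ac, the antibody given in the labels is the one given for H3K4me1, whereas the study's methods give a different one, and which was used is not settled here. Both modifications also shared 1 input pair, so a local error in that input would have touched both.

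Sequences from 7 lost regions are shown to give the range of what was lost. They are the widest region (near Auts2; ranked by the mean width of its 3 WT calls), the one with the highest enrichment (near Csmd3; ranked by its lowest WT ratio of ChIP to input reads), the one with the highest mean WT ratio in the gene that held most of them (Adgrl3), a region near each of 2 developmental regulators (Sox17 and Zic1), the widest one that lost H3K27ac calls as well (in Car10), and the widest one that gained H3K27me3 calls (in Sdk1). Each is 240 bases from the middle of the stretch called in all 3 WT libraries, on the plus strand of GRCm38. A lost region outside genes is named after the nearest 5′ end at any distance, which for the Csmd3 region was 756338 bp. Capitals mark matches to any of 13 short motifs, which are spelled out further on.
Auts2 (chr5:132589381-132589620): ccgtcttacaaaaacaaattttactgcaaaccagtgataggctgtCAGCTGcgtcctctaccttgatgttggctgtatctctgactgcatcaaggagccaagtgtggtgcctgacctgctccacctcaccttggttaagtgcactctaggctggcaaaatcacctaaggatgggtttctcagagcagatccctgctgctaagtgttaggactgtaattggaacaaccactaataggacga
Csmd3 (chr15:49549181-49549420): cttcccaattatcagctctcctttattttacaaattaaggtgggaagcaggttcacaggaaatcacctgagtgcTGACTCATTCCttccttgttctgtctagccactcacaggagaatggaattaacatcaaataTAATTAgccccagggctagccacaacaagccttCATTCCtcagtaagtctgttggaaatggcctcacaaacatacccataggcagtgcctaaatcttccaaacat
Adgrl3 (chr5:81403181-81403420): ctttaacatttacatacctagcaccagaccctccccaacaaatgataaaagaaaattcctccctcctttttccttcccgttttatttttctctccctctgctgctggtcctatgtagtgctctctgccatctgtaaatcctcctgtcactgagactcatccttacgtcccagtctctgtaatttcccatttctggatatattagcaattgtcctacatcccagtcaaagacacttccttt
Sox17 (chr1:4479381-4479620): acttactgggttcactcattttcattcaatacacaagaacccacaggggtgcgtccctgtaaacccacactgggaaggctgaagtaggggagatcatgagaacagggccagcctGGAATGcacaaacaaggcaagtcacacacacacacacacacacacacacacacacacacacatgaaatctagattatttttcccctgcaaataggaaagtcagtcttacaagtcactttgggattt
Zic1 (chr9:91395281-91395520): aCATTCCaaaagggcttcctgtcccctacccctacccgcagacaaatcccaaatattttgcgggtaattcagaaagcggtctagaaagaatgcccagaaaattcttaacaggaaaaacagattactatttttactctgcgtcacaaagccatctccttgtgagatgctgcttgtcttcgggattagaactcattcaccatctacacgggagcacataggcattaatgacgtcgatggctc
Car10 (chr11:93553381-93553620): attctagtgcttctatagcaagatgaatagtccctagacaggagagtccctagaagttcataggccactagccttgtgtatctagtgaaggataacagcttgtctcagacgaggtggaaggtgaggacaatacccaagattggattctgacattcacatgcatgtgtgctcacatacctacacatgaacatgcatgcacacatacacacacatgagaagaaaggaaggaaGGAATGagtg
Sdk1 (chr5:142094381-142094620): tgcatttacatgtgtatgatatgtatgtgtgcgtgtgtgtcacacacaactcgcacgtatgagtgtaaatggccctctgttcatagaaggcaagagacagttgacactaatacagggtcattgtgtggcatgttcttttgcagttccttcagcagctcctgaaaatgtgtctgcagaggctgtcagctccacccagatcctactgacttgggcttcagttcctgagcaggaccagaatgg
The Csmd3 window held 4 matches (AP-1, homeodomain and a pair of Tead matches) and no CpG, while the Zic1 window held 8 CpG dinucleotides and no repeat-masked base. The Adgrl3 and Sdk1 windows held no match.

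The lost regions were narrower and more weakly enriched than those called in all 6 libraries. Their merged width had a median of 3200 bp (quartiles 2600 and 4200 bp, range 800 to 11000 bp), and they covered 4.14 Mb in all. The median called width in the 3 WT libraries was 2400, 2600 and 2600 bp, with a median of 135, 137 and 135 ChIP reads and 71, 75 and 72 input reads per region. The ratio of ChIP to input reads had a median of 1.90, 1.86 and 1.88, and ranged from 1.22 to 6.19 over all regions and WT libraries. These are ratios of raw reads, so they can be compared within a library but carry the depth of ChIP and input. Within one region, the ratio varied by a median coefficient of variation of 9.60% among the WT libraries. The regions called in all 6 libraries had a median ratio of 2.26 in WT replicate 1, and their median called width there was 5400 bp. The regions gained in the KO were as narrow as the lost ones (medians of 2600, 2600 and 2400 bp in the KO libraries), with ratios of 1.75, 1.77 and 1.74.

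The false discovery rate (FDR) of the calls had a median of 1.23e-09, 5.27e-09 and 2.58e-09 in the WT libraries, and 27, 29 and 24 of the 1181 regions had an FDR above 0.01. The regions just outside the rule, the 1401 called in 3 WT and 1 KO library, had a median ratio of 1.90, 1.90 and 1.89 in the WT and a median width of 2600 bp in each. Their single KO call had a median ratio of 1.84, a median width of 2000 bp and a median FDR of 2.20e-07. In the WT, these medians were close to those of the lost regions. No KO level can be given, as the lists hold reads only where a region was called. A lower mark in every cell and a mark in fewer cells cannot be told apart in such bulk samples.

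**Figure D1:**
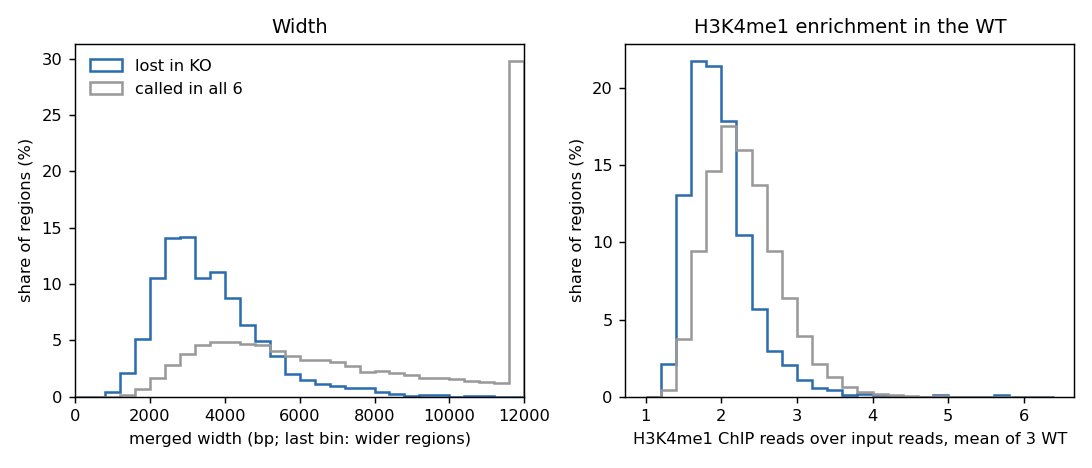
Merged width (left, bp; the last bin collects wider regions) and mean ratio of H3K4me1 ChIP to input reads in the 3 WT libraries (right), as the share of regions, for the 1181 regions lost in the KO (blue) and the 42214 called in all 6 libraries (grey). The lost regions lie at the narrow and weakly enriched end of both distributions.

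By the rule, no KO H3K4me1 call overlapped a lost region, and the distances to the nearest one are given without a comparison set. The nearest KO call was at a median distance of 9200 bp (quartiles 3400 and 30000 bp), and 74 of the 1181 (6.27%) had one within 1000 bp, 404 (34.2%) within 5000 bp and 987 (83.6%) within 50000 bp. The most isolated one was 1056800 bp from any KO call. Leaving any 1 library out of the rule, which then asks for fewer lists, gave 1534 to 1775 regions in place of 1181, with 1775 without KO replicate 3.

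Input reads in the calls around most lost regions were close to even between the genotypes. Within 100 kb on either side, input reads per kb of called sequence gave a log2 KO/WT ratio for 1062 of the 1181. Its median was -0.07. The ratio is of raw reads, not scaled for depth, and describes the calls of the whole window, not the lost region alone. However, 15 lost regions lay within 1 Mb of an excluded segment, 11 on chromosome 12 and 4 on chromosome 2. All 8 regions with a log2 ratio beyond 0.5 in either direction were among these 15. On the proximal side of the chromosome 12 segment, 5 regions within chr12:102878601-102939200 had log2 ratios of -1.08 to -1.06, and on its other side 5 regions (chr12:119069601-119947400) had too few KO calls nearby to give a ratio. Without the 15, the log2 ratios ranged from -0.47 to 0.39. For the 1181, the part of the input in the loss of calls was not tested, and the values below are also given without the 15 where they moved.

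The lost regions were spread over all 19 autosomes, from 17 on chromosome 8, most of which was excluded, to 112 on chromosome 2. Of the lost regions, 146 (12.4%) had another one within 50000 bp, a share that was not set against that of other H3K4me1 regions. Joining at that distance gave 8 groups of 3 or more. The largest, with 6, was the one beside the chromosome 12 segment (chr12:102831401-102939200, at Btbd7 and Cox8c). The next held 4 regions at Slc38a11 and Cobll1 (chr2:65283601-65335200).

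By position, 640 of the 1181 (54.2%) were intergenic, 313 (26.5%) intronic without touching an exon, 160 (13.5%) touched a coding exon, 19 (1.61%) an untranslated exon, and 49 (4.15%) the promoter window of a protein-coding gene, from 5000 bp upstream to 100 bp downstream of the 5′ end. Of the regions called in all 6 libraries, 32.0% were intergenic and 28.1% touched a promoter window, and of all 64489 regions 36.8% and 20.4% did. The regions gained in the KO shared the low promoter fraction (4.39%), and 34.2% of them were intergenic. The median distance to the nearest 5′ end was 70263 bp for the lost regions, 41649 bp for the gained regions and 20702 bp for those called in all 6. Narrow regions touch fewer features, so width and position are not separate measures here.

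**Figure D2:**
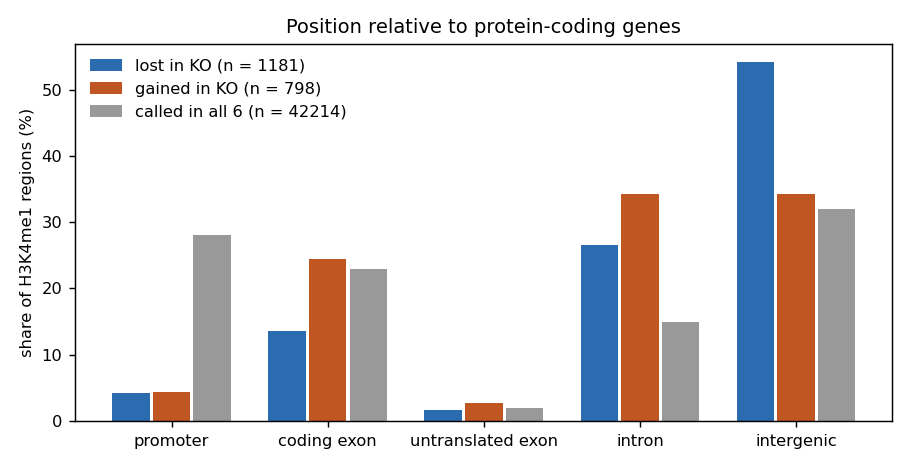
Share of H3K4me1 regions (%) in each position class relative to protein-coding genes, for regions lost in the KO, gained in the KO and called in all 6 libraries. Each region was counted in the first class that it touched, from left to right. The lost regions have the highest intergenic bar (54.2%) and the lowest promoter bar (4.15%).

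The lost regions had a base composition near that of the others. Over the central 800 bp, GC content had a median of 43.6%, against 45.5% in all regions, and the median number of CpG dinucleotides was 7 against 8. Repeat-masked sequence had a median of 17.8% of bases, against 17.6%. Among the 13 motifs, searched on both strands as exact letters, the Esrrb motif (TCAAGGTCA) was in 1.35% of lost regions, 2.84% of all regions and 6.27% of gained regions. The Oct4 octamer (ATGCAAAT) was in 7.79% of lost and 5.71% of all regions, the Sox motif (CATTGTT) in 16.8% and 13.0%, the homeodomain motif (TAATTA) in 24.7% and 20.8%, the Gata motif (AGATAA) in 41.4% and 36.9% and the Tead motif (GGAATG) in 41.7% and 37.8%. In the gained regions these motifs were in 5.89%, 15.5%, 22.2%, 42.9% and 40.6%, in the same order. Each of these shares was also above that of all regions.

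The NF-κB motif (GGGNNTTCC) was in 9.57% of lost and 9.97% of all regions. Likewise, AP-1 (TGANTCA) was in 23.2% and 22.7%, the E-box (CAGCTG) in 33.4% and 34.4%, Klf (GGGTGTGG) in 6.69% and 8.19%, the CG-rich Sp1 motif (GGGGCGGGG) in 2.96% and 3.91%, Nrf1 (GCATGCGC) in 1.69% and 1.64%, and the CTCF core (AGGGGGCG) in 1.44% and 1.97%. The AP-1 and Tead matches overlap in the Csmd3 window. These shares are descriptions, and the part of the lower GC content in them was not tested.

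Among the 8 widest lost regions, enrichment and the other modifications varied. The region near Auts2 (chr5:132587001-132596400), a gene linked to neurodevelopment, was called over 9200, 7800 and 9200 bp in the WT, with 368, 331 and 390 ChIP reads over 205, 178 and 205 input reads. It carried H3K9me3 calls in all 6 libraries and no H3K27ac. The region near Car2 (chr3:14902401-14910800), which encodes a carbonic anhydrase, had ratios of 1.83, 1.69 and 1.72, and its H3K27ac calls went from 3 of 3 WT to 1 of 3 KO libraries. The intronic region of Car10 (chr11:93549601-93556600) was called over 7000, 7000 and 6200 bp with ratios of 1.50, 1.62 and 1.53. Its H3K27ac calls were in 3 of 3 WT and 0 of 3 KO libraries. The region near Pmp2 (chr3:10137001-10146200), a myelin protein gene, lay under H3K27me3 in all 6 libraries, with ratios of 1.57, 1.53 and 1.53. The other 4 of the 8 widest lay near Gje1 and Syne2 and in introns of Osbpl3 and Ddah1. Osbpl3 had the weakest ratios (1.23, 1.24 and 1.29), although its merged width was 10400 bp. Its H3K27ac calls went from 3 of 3 to 1 of 3 libraries and those of Ddah1 from 2 of 3 to 0 of 3, while Gje1 kept them in all 6.

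The most enriched lost regions were mostly short. At the top stood a 1600 bp region (chr15:49548401-49550000) 756338 bp from the nearest 5′ end, that of Csmd3. It held 99, 92 and 104 ChIP reads over 16, 15 and 23 input reads, ratios of 6.19, 6.13 and 4.52, and H3K27ac calls in 3 of 3 WT and 0 of 3 KO libraries. The second, 1400 bp near Ercc4 (chr16:13061201-13062600), had ratios of 5.19, 5.33 and 3.90 and no call of another modification. Of the central 800 bp, 57.4% and 54.8% were repeat-masked at these sites, where input reads were few. In the coding part of Dhrs4 (chr14:55479401-55482400), a dehydrogenase gene, a region 643 bp from the 5′ end had ratios of 3.33, 3.49 and 4.75. The other 5 of the 8 most enriched had lowest ratios of 3.21 to 3.77, and among them was a region in Abca13. The rest were intergenic, with nearest 5′ ends at 1700015G11Rik (1127673 bp away), Gbe1 (693052 bp), Ddhd1 (55658 bp) and Tmprss15 (8504 bp).

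Some genes held several lost regions. In all, 541 lost regions (45.8%) lay in the body or up to 5000 bp upstream of 488 protein-coding genes, 2.46% of the 19844 on the same chromosomes. Of these genes, 57 held at least 2 and 11 at least 3. Adgrl3, which encodes the adhesion receptor latrophilin 3, held 5 lost regions among the 24 H3K4me1 regions over its 804996 bp, all intronic, and 13 of the 24 were called in all 6 libraries. The one with the highest mean ratio (chr5:81402801-81406400) had ratios of 4.24, 2.22 and 3.79, while another (chr5:81154601-81158000; 2.81, 3.45 and 2.49) was higher in its lowest library. The remaining 3 ranged from 1.63 to 2.03. Cntnap5a, of the neurexin family, held 4 of 8, and only 1 of its 8 regions was called in all 6 libraries. A pair of neighbouring Cntnap5a regions (chr1:115917201-115921600 and chr1:115929601-115933800) also had H3K27ac calls in 3 of 3 WT and 0 of 3 KO libraries. Gpc5, a glypican gene, held 4 of 13, and 2 of the 4 (chr14:115211201-115218800 and chr14:116136201-116138800) went from 3 of 3 to 0 of 3 libraries in H3K27ac.

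A further 8 genes held 3 lost regions each, and the 5 with the highest share of their H3K4me1 regions lost are described here (the others were Celf2, Ank3 and Fgfr2). Slc7a14, of a family of amino acid transporters, held 3 lost regions of 5 within 10800 bp, and 1 of them (chr3:31216001-31218800) went from 3 of 3 to 0 of 3 libraries in H3K27ac. Efna5, an ephrin that guides axons, held 3 of 12, Malrd1 held 3 of 7, and Myom1, a protein of the sarcomere, held 3 of 8. Malrd1 kept H3K27ac calls in 3 WT and 3 KO libraries at chr2:16014801-16016800, and in 3 WT and 2 KO libraries at chr2:16033401-16035200. No Efna5 or Myom1 region had an H3K27ac call in any library. The Myom1 regions lay under H3K27me3, with calls in 1, 3 and 3 WT and 3, 2 and 3 KO libraries. Kcnq1, a potassium channel gene whose intron hosts the imprinted antisense RNA Kcnq1ot1, held 3 of 17 (chr7:143384801-143392000, chr7:143407001-143410200 and chr7:143414201-143421000). All 3 lay under H3K27me3 in all 6 libraries. In the WT their ratios were 2.68, 2.19 and 1.67 in the first, 2.19, 2.51 and 1.89 in the second and 1.71, 1.64 and 1.88 in the third.

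Few genes of the 8 lists were linked to a lost region. A gene was linked when a lost region lay in its body or up to 5000 bp upstream, or when its 5′ end was the nearest one within 50000 bp. This held for 721 genes, 3.63% of all. It held for 0 of 22 naïve pluripotency genes, 0 of 25 genes of the NF-κB pathway and 0 of 22 enzymes of H3K4 methylation. It held for 1 of 59 genes of WNT, TGF-β and FGF signalling (Id2), 2 of 23 formative and primed epiblast genes (Cdh2 and Fst), 3 of 27 mesendoderm genes (Sox17, Foxc1 and Dab2), 1 of 15 trophectoderm genes (Fgfr2) and 5 of 34 neural genes (Zic1, Lhx2, Otx1, Meis2 and Map2). These counts are small and were not tested, and at 3.63% fewer than 1 of 22 genes would be linked, so that a count of 0 is near the background.

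Of the 11 lost regions linked to a gene of these lists other than Fgfr2, 5 had H3K27me3 calls in all 6 libraries. They lay near Zic1, Lhx2, Foxc1, Sox17 and Id2. Of the 3 Fgfr2 regions, only the one at chr7:132029801-132037000 had such calls in all 6. Of all lost regions, 156 (13.2%) had H3K27me3 in all 6 libraries, and of the regions called in all 6 for H3K4me1, 30.7%. The one near Zic1 (chr9:91393201-91397600), a neural transcription factor gene, had 201, 193 and 225 ChIP reads over 123, 126 and 127 input reads, 27391 bp from its 5′ end. Those near Lhx2 (chr2:38332801-38334000; ratios 1.82, 1.79 and 1.85), which patterns the forebrain, and Foxc1 (chr13:31813401-31816800; 1.69, 1.59 and 1.62), a mesoderm factor, lay 5281 and 6768 bp from the 5′ end. The one near Sox17 (chr1:4478601-4482400), a master gene of endoderm, had ratios of 2.29, 1.55 and 1.56 at 14954 bp. At these 4, H3K27ac was called in no library.

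At Id2, an inhibitor of bHLH factors, the region (chr12:25131001-25134000) lay 33861 bp from the 5′ end and had H3K27ac calls in 3 of 3 WT and 1 of 3 KO libraries. In an intron of Dab2 (chr15:6406401-6409600), an endocytic adaptor of extraembryonic endoderm, ratios were 2.59, 2.18 and 2.60 and H3K27ac calls went from 2 of 3 to 0 of 3. At Cdh2, the gene of N-cadherin, Otx1, a homeobox gene of the forebrain, and Map2, a neuronal microtubule protein, the regions had no H3K27me3 call in any library. The Meis2 region had 1 WT call and the Fst region 1 WT and 1 KO call. The 3 regions assigned to Fgfr2 rest on an annotated gene of 2960900 bp that spans other genes.

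The calls of the other modifications did not enter the rule and could be tested. H3K27ac was called at 29.7%, 29.4% and 27.9% of the lost regions in the WT libraries and at 10.8%, 10.8% and 8.98% in the KO libraries. The groups did not overlap, and the means were 29.0% ± 0.99 (SD, n = 3) and 10.2% ± 1.08 (SD, n = 3). The difference of -18.8 percentage points was many times the spread between replicates (two-sided exact permutation test, p = 0.1, the smallest that 3 against 3 libraries can give, Benjamini-Hochberg adjusted p = 0.15 over 12 tests). By bases covered, H3K27ac was 24.5% ± 0.50 in WT and 8.26% ± 0.58 in KO libraries (SD, n = 3; exact permutation p = 0.1, adjusted p = 0.15). The H3K27ac lists as a whole covered more sequence in the KO (411 to 419 Mb) than in the WT (380 to 393 Mb). Without the 15 regions beside the segments, the difference in regions called was -18.5 points.

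The difference was larger than at H3K4me1 regions called throughout. At the 42214 regions called in all 6 H3K4me1 libraries, H3K27ac was called at 73.1% ± 0.56 of WT and 70.5% ± 1.16 of KO regions (SD, n = 3). By bases these regions went the other way, from 61.9% ± 1.03 to 66.2% ± 0.54 (SD, n = 3). The share at lost regions minus that at these regions was -44.2 ± 0.46 points in the WT and -60.3 ± 0.11 in the KO libraries (SD, n = 3 each), a difference of -16.2 points with no overlap (exact permutation p = 0.1, adjusted p = 0.15). At the regions gained in the KO, the share went the other way, from 19.7% ± 0.43 to 36.2% ± 0.38 (SD, n = 3 each). As regions called in all 6 were wider, the shares were also taken within classes of merged width. Under 3000 bp, the mean share went from 21.6% to 7.60% at 456 lost regions and from 40.1% to 36.0% at regions called in all 6. From 3000 to 5000 bp it went from 29.4% to 9.81% against 49.6% to 44.9%, and from 5000 bp upwards from 47.4% to 18.7% against 84.5% to 82.7%.

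**Figure D3:**
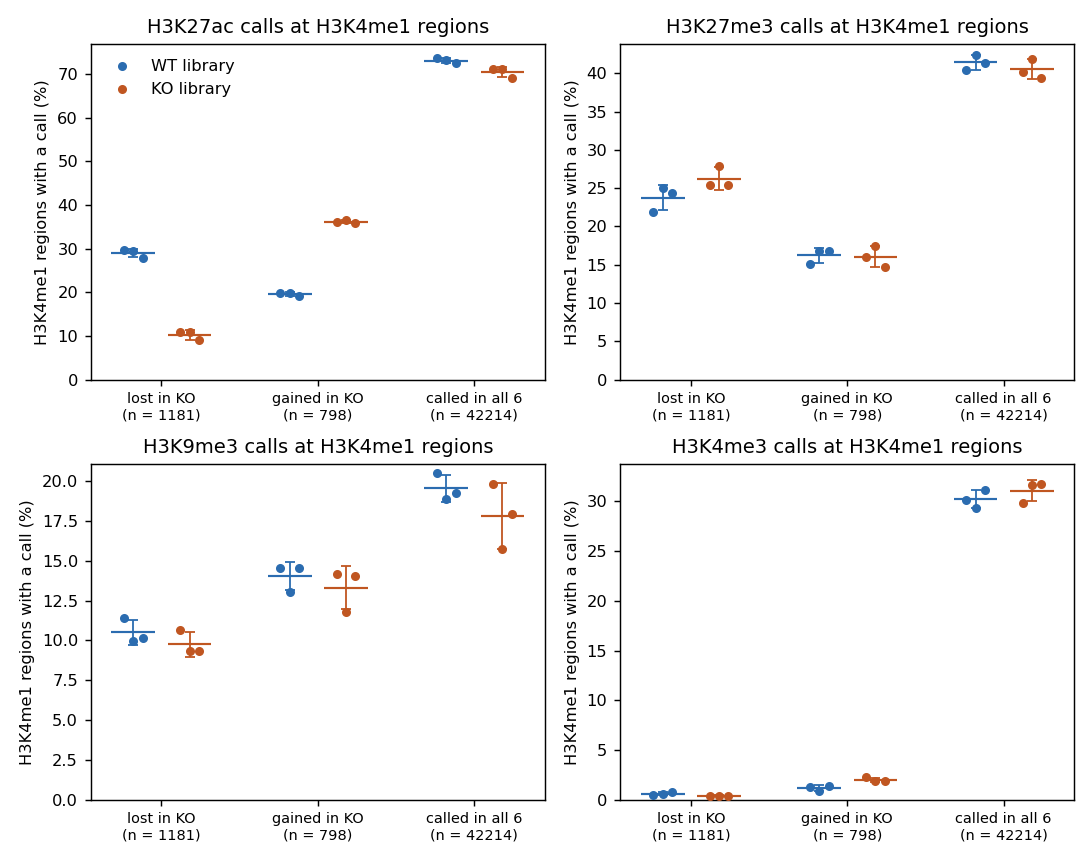
Share of H3K4me1 regions (%) with a call of H3K27ac, H3K27me3, H3K9me3 or H3K4me3 in each WT (blue) and KO (orange) library, for regions lost in the KO, gained in the KO and called in all 6 libraries. Points are libraries, horizontal lines the means and error bars the SD of 3. At lost regions the 3 WT values of H3K27ac (27.9% to 29.7%) lie far above the 3 KO values (8.98% to 10.8%), while the other modifications move little.

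The input shared by H3K27ac and H3K4me1 was compared at the 169 lost regions that had an H3K27ac call in both genotypes. Input reads per kb of these calls had a median of 30.0 in the WT and 28.3 in the KO, with a median log2 KO/WT ratio of -0.09. In the WT, the lost regions had a median of 29.0, 29.2 and 29.0 input reads per kb of their H3K4me1 calls, against 30.8 at the regions called in all 6. Lost regions without an H3K27ac call in the KO gave no KO input value, so the comparison does not cover them. The part of the shared input in the H3K27ac difference was not tested.

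Call by call, 93 lost regions (7.87%) had H3K27ac in 3 of 3 WT and 0 of 3 KO libraries and 1 had the reverse, against 1.89% and 0.915% of all 64489 H3K4me1 regions. Without the 15 beside the segments, 88 remained. Of 217 lost regions (18.4%) with H3K27ac in 3 of 3 WT libraries, 33 had it in 1, 24 in 2 and 67 in 3 KO libraries. A further 685 (58.0%) had no H3K27ac call in any library, more than had one. The shares of 18.4% and 58.0% were not set against the same shares of other H3K4me1 regions. Per WT library, H3K27ac was called at a mean of 29.0% of lost regions and 73.1% of regions called in all 6. The 217 were wider than the 702 with no WT call (median 3800 against 3000 bp) and farther from a 5′ end (110250 against 62955 bp), at nearly the same H3K4me1 ratio (1.88 and 1.92).

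The 4 widest of the 93 lay in an intron of Car10, at the promoter of Ceacam20 (chr7:19961201-19968200), near Abcb5 (chr12:119069601-119078600, beside the segment) and in an intron of Gpc5 (chr14:115211201-115218800). The Ceacam20 region had 254, 305 and 249 H3K4me1 reads over 154, 190 and 171 input reads, and it went from 3 of 3 to 1 of 3 libraries in H3K27me3 as well. The single region with the reverse lay upstream of Bpifb9b (chr2:154298801-154302400).

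The share in the KO followed the number of KO libraries that kept the H3K4me1 call. Among regions called in 3 of 3 WT H3K4me1 libraries, the mean H3K27ac share in the KO was 10.2% with 0, 15.0% with 1, 22.0% with 2 and 70.5% with 3 KO H3K4me1 calls. The matching WT shares were 29.0%, 29.1%, 33.8% and 73.1%. Regions just outside the rule also had fewer H3K27ac calls in the KO than in the WT.

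**Figure D4:**
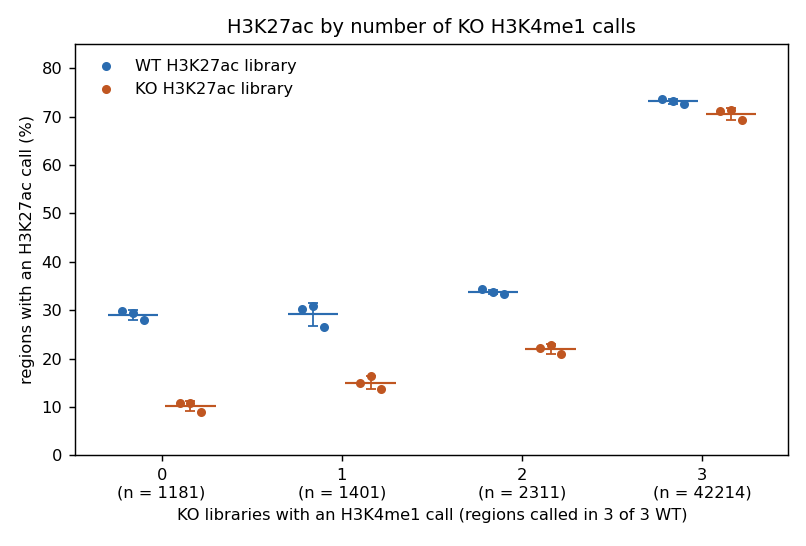
Share of regions (%) with an H3K27ac call in each WT (blue) and KO (orange) library, for regions called in 3 of 3 WT H3K4me1 libraries and in 0, 1, 2 or 3 KO H3K4me1 libraries. Lines are means and error bars the SD of 3 libraries. From 0 to 3 KO calls, the KO mean goes from 10.2% to 70.5% and the gap to the WT closes.

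H3K27me3 moved little. It was called at 21.9%, 25.1% and 24.3% of the lost regions in the WT libraries and at 25.4%, 27.9% and 25.4% in the KO libraries, with no overlap and a gap far smaller than for H3K27ac. The means were 23.8% ± 1.63 and 26.2% ± 1.47 (SD, n = 3 each, exact permutation p = 0.1, adjusted p = 0.15). By bases it covered 17.3% ± 1.60 and 19.6% ± 0.70 (SD, n = 3 each, exact permutation p = 0.1). At the regions called in all 6 it was 41.4% and 40.5%, and the share at lost regions minus that share rose by 3.38 points (exact permutation p = 0.1, adjusted p = 0.15). The H3K27me3 calls covered 214 Mb in WT replicate 1 and 259 to 278 Mb in the other libraries, so that the library with the least sequence called also had the lowest share.

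In H3K27me3, 6 lost regions (0.508%) were restricted to the WT and 6 to the KO (against 0.526% and 0.464% of all H3K4me1 regions), shares near the background. Without the regions beside the segments, the first count was 3. The 4 widest with H3K27me3 in the KO alone lay in Sdk1 (chr5:142091801-142098000), a synaptic adhesion gene, in Usp29 (chr7:6797401-6802200) of an imprinted cluster, near Mtpap and in Syne2. In Sdk1 and Usp29, H3K27ac went from 2 of 3 to 0 of 3 libraries. Of the 4 widest with H3K27me3 in the WT alone (near Btbd7, at Itgb8, in Fam186a and near Unc79), only the Fam186a region (chr15:99919801-99924400) lay away from the segments.

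Combining both marks, 296 lost regions had H3K27ac without H3K27me3 in at least 2 of 3 WT libraries, 235 had H3K27me3 without H3K27ac, 35 had both and 598 had no call of any of the 4 other modifications. In the KO these numbers were 95, 296, 8 and 737. Of the 232 regions with H3K27ac in at least 2 WT and at most 1 KO library, 177 had no call of the 4 in at least 2 KO libraries. H3K27me3 was present at 26 of them in the KO and at 25 in the WT, so the count with H3K27me3 was nearly the same in both genotypes. These combinations were counted at the lost regions only. Whether the counts differ from those over all H3K4me1 regions was not tested.

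H3K9me3 and H3K4me3 were rare. H3K9me3 was called at 11.4%, 9.99% and 10.2% of lost regions in the WT and 10.7%, 9.31% and 9.31% in the KO, with overlap (10.5% ± 0.79 and 9.77% ± 0.78, SD, n = 3 each, exact permutation p = 0.3, adjusted p = 0.33). By bases it covered 6.77% ± 0.27 and 6.42% ± 0.17 (SD, n = 3 each, exact permutation p = 0.2), more than the 4.74% and 4.81% at the regions called in all 6. At the gained regions it covered 6.64% of bases in the WT and 5.65% in the KO. By regions called, the share at lost regions was below that at regions called in all 6 (19.6% in the WT and 17.8% in the KO). It was restricted to the WT at 2 lost regions, at the promoter of Itgb8 and in Cyp2b19, and to the KO at 1, near Pcmtd1, against 0.533% and 0.183% of all H3K4me1 regions.

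At the Itgb8 promoter (chr12:119235601-119240600), an integrin gene beside the chromosome 12 segment, H3K27ac, H3K27me3 and H3K9me3 calls all went from 3 of 3 to 0 of 3 libraries. H3K4me3 was called in all 6, but over less sequence in the KO (235, 706 and 500 bp) than in the WT (928, 1165 and 1128 bp). No KO input ratio could be taken there, as the nearest KO H3K4me1 call lay 303600 bp away.

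H3K4me3 touched 6, 7 and 9 lost regions in the WT and 4, 5 and 5 in the KO, and 1170 of the 1181 had no H3K4me3 in any library. The shares were 0.62% ± 0.13 and 0.40% ± 0.05 (SD, n = 3 each, exact permutation p = 0.1, adjusted p = 0.15), and the difference of -0.23 points became -0.09 (exact permutation p = 0.5) without the 15 regions beside the segments. No lost region was restricted to either genotype in H3K4me3, against 0.133% (WT) and 0.329% (KO) of all H3K4me1 regions. H3K4me3 was called at 30.2% of the regions called in all 6 in the WT and 31.1% in the KO, and at 1.17% and 2.01% of the gained regions. Relative to the regions called in all 6, the shares of H3K9me3 and H3K4me3 changed by 0.97 and -1.07 points (exact permutation p = 0.4 and 0.3).

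Reads of the other modifications could be compared where a wider region of that modification was called in all 6 libraries over about the same length and held a lost region. This held for 13 H3K27ac, 39 H3K27me3 and 28 H3K9me3 regions, and the values are for the whole region, of which the lost region was a median of 46.7%, 9.22% and 20.0%. Over all tested regions (edgeR, quasi-likelihood F test, Benjamini-Hochberg), 9 of the 13 H3K27ac regions were lower and 2 higher in the KO at an adjusted p under 0.05, against 26.5% lower and 26.4% higher among all 4054 tested. With covered length as an offset, which admits every region called in all 6, 51 of 109 were lower and 1 higher, against 18.5% and 3.0% of 24039 regions, and the median log2 change was -0.24, against -0.13 over all regions. The 13 and 109 are only those still called in all 6 libraries, of 503 merged H3K27ac regions that held a lost region.

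CPM is the read count scaled to the library's total over tested regions. The H3K27ac region chr7:53143201-53145400 held the lost region whose nearest 5′ end, that of 1700015G11Rik, lay 1127673 bp away. It had 21.4, 18.9 and 21.4 CPM of H3K27ac in the WT and 9.35, 7.84 and 8.42 in the KO. Its log2 change was -1.27 ± 0.10 (SE, edgeR adjusted p = 1.22e-09). Near Akr1e1, of the aldo-keto reductases, the region chr13:4820601-4827600 had 64.6, 60.5 and 66.1 CPM against 31.4, 27.1 and 30.8, a log2 change of -1.10 ± 0.07 (SE, edgeR adjusted p = 1.74e-11). At Tbl1xr1 (chr3:22285001-22294000), a subunit of the NCoR corepressor complex, it was 70.6, 66.5 and 66.0 CPM against 41.3, 42.6 and 43.2. The 103800 bp region at Phc1, a Polycomb subunit expressed in mESCs, changed by -0.20 ± 0.02 (SE, edgeR adjusted p = 2.00e-09). These 4 were chosen for the lowest adjusted p without overlap between genotypes.

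For H3K27me3, 9 of 39 regions were lower and 7 higher (19.3% and 15.8% of all 2025 tested), in both directions. With the length offset, 13 of 233 were lower and 2 higher (2.56% and 0.681% of all 18809). The largest change was at the Kcnq1 domain with its 3 lost regions (chr7:143298001-143505400). It had 5148, 5197 and 5355 CPM in the WT and 7941, 8144 and 7944 in the KO, a log2 change of 0.61 ± 0.03 (SE, edgeR adjusted p = 1.71e-47). The Zic1 domain (chr9:91346601-91424600) went the other way, from 2550, 2636 and 2674 to 2128, 2059 and 2233 CPM, a log2 change of -0.29 ± 0.04 (SE, edgeR adjusted p = 3.01e-13). A region at Pak7, a kinase gene now often called Pak5 (chr2:136105801-136125600), fell by 0.43 on the log2 scale, and one at BC049352 (chr9:45234801-45272800) rose by 0.27. With the length offset, these were -0.29 and 0.07, at edgeR adjusted p of 0.103 and 0.777.

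For H3K9me3, 5 of 28 regions were higher and 2 lower (6.91% and 7.38% of all 3156 tested). The 4 with the lowest adjusted p and no overlap were higher in the KO. They were near 1700019D03Rik (log2 change 0.32 ± 0.04, SE, edgeR adjusted p = 1.16e-05), Hs2st1 (0.18 ± 0.03), Bst1 (0.18 ± 0.04) and Csrp2 (0.36 ± 0.08). With the length offset, the log2 changes of all but Hs2st1 missed the threshold (edgeR adjusted p = 0.18, 0.262 and 0.206), and 1 of 116 regions was higher and 0 lower (0.322% and 0.11% of all 27342).

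**Figure D5:**
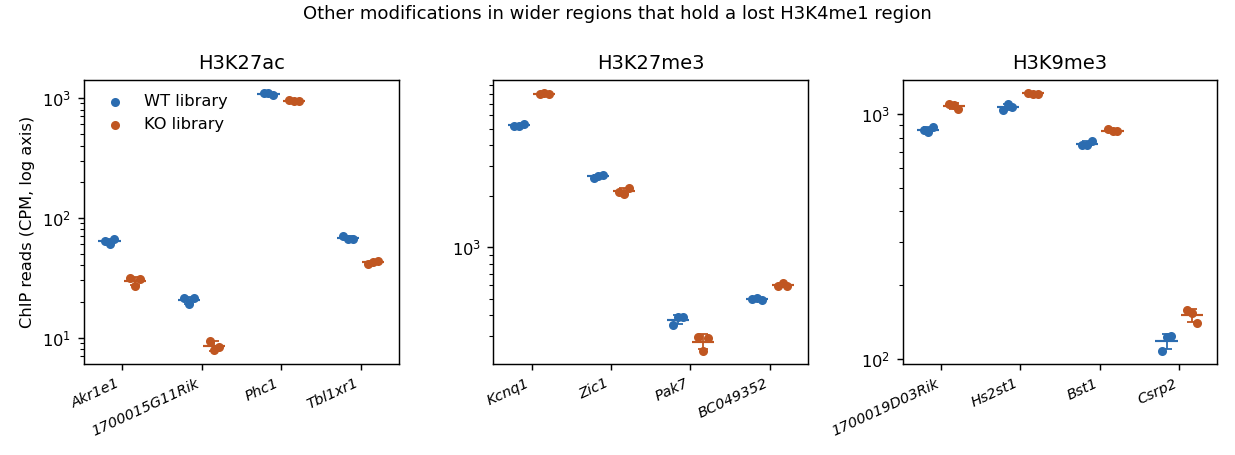
ChIP reads scaled to the library's total over tested regions (CPM, log axis) of H3K27ac, H3K27me3 and H3K9me3 in the wider regions that hold a lost H3K4me1 region, named by gene, in each WT (blue) and KO (orange) library. Lines are means and error bars the SD of 3 libraries. The H3K27ac values are lower in the KO at all 4 regions, and H3K27me3 is higher over Kcnq1 and lower over Zic1.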

How the data were processed

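ChIP-seq of 5 histone modifications in 3 IκBα-WT and 3 IκBα-KO clones each was analysed from the region lists as deposited. Per the submitters' processing notes, Trim Galore 0.6.6, Bowtie2 2.4.4, SAMtools 1.15, deepTools 3.5.1, SICER 0.0.52 and MACS2 2.2.7.1 were used, on GRCm38. The study's methods give that SICER version as the one of epic2, a reimplementation of SICER. The authors deposited epic2 lists in 200 bp steps for H3K4me1, H3K27ac, H3K27me3 and H3K9me3, in which each region has its ChIP and input read counts, p-value, FDR, log2 fold change and score. For H3K4me3 the authors deposited MACS2 peaks with a fold enrichment ratio, −log10 p- and q-values and a score, without counts. Regions were called per library, and the counts hold reads only inside calls. Each epic2 list used 1 input per genotype, shared by the replicates.

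Calls of each modification were merged at 1 bp overlap. A lost region counted as called when any base lay under a call. Genes were those of GENCODE M21, and sequence was that of RefSeq GRCm38.p6. Shares per library were compared with two-sided exact permutation tests over the 20 assignments of 3 of 6 libraries (smallest p = 0.1). Reads were fitted with edgeR 4.0.16 in R 4.3.3 (TMM, quasi-likelihood, Benjamini-Hochberg) over merged regions called in all 6 libraries whose shortest covered length was at least 0.8 of the longest; the fit was tested on simulated data. DESeq2 1.42.0, other filters, leaving out each library and a replicate block were alternatives. SE was the log2 change over the root of F. Overlaps and permutation tests used Python 3.11.15, pandas 2.3.3 and SciPy 1.17.1.

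The regions, gene lists and tests were chosen with earlier results of these data known. Named were the 8 widest lost regions (by mean WT width), the 8 most enriched (by their lowest WT ratio, with at least 10 input reads in each WT library), the 8 genes with the most lost regions (at least 3, ties by the share of the gene's regions lost), genes of 8 lists linked to one, the 4 widest restricted in each other modification and direction, and the 4 regions per fitted modification with the lowest adjusted p and no overlap. H3K4me1 and its inputs give no KO value at the lost regions.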

Additional observations from a re-analysis of the deposited data

How the results depend on the processing

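The main limit is that the lists hold no reads where nothing was called, so that absence of a call is not a level of 0, and that 3 against 3 libraries allow no exact p below 0.1. Leaving out each library in turn, the number of lost regions ranged from 1534 to 1775, with 1775 without KO replicate 3 (all 1181 among them). The directions of the H3K27ac, H3K27me3 and H3K4me3 shares held under every alternative run. For H3K9me3, requiring at least 0.5 of a lost region to be covered turned the difference to 0.254 points (5.81% and 6.07%, exact permutation p = 0.4), and the cause was not tested. With 1 library left out, lost regions restricted to the KO in H3K27ac numbered 1 to 2. Those restricted to the WT and to the KO numbered 7 to 12 and 11 to 17 in H3K27me3, 3 to 7 and 1 to 4 in H3K9me3, and 0 to 2 and 0 to 1 in H3K4me3, where fewer libraries have to meet the rule. At least 1 Mb from the segments, an alternative chosen after seeing the data, the WT-restricted counts were 3 in H3K27me3 and 1 in H3K9me3. The covered-length offset, which tests more regions, called 52 of 109 H3K27ac and 1 of 116 H3K9me3 regions. The replicate numbers did not pair the samples (correlations of same-numbered deviations from -0.083 to 0.113). With the replicate block, 11 H3K27ac, 18 H3K27me3 and 6 H3K9me3 regions were called in place of 11, 16 and 7, and the shares had a sign-flip p of at least 0.25, the smallest possible.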
